A study of Mus musculus with 9 samples.

Results

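The 118 pseudogenes described here are the rows of the MGH-CP1 table whose deposited gene biotype contains the word pseudogene. That table lists 471 genes, and the 2 deposited tables together list 720. Of the 118, 109 carry the biotype processed pseudogene, 4 transcribed processed, 3 transcribed unprocessed and 2 unprocessed pseudogene. The authors had entered a gene in the table only if it changed with MGH-CP1, with their own adjusted p under 0.05 and a log2 change of 1 or more in either direction. All 118 therefore differ between the groups by construction, and each direction and size below is a description of genes chosen for change.

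The cells were EHE17, an endothelial tumour line from mouse with the genotype TC+/+ Cdkn2a -/-, which every group carried. The labels do not spell out TC, and in mouse models of epithelioid hemangioendothelioma it usually stands for the fusion of TAZ with CAMTA1. The 3 libraries of the vehicle group came from cells given DMSO, and the 3 libraries of the other group from cells given 10 µM MGH-CP1 for 16 h. MGH-CP1 prevents the attachment of palmitate to TEAD transcription factors, through which YAP and TAZ bind DNA. A further 3 libraries, from cells given 300 nM dinaciclib for 16 h, are in the other table. Replicates are biological triplicates per the labels, which do not say how the cultures were separated.

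A processed pseudogene arises when the messenger RNA of a coding gene is copied back into DNA and inserted elsewhere in the genome, so that it resembles its parent's transcript without introns. Genes transcribed at high levels in the germ line, above all those for ribosomal proteins, glycolytic enzymes and other housekeeping proteins, have left many such copies. An unprocessed pseudogene is a disabled duplicate that keeps the exon and intron layout of its parent. Because a copy can match its parent almost base for base, a short read may align to either, and the count of a pseudogene can hold reads of its parent.

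Each pseudogene was aligned to the annotated transcripts to find its closest coding gene, here called its parent. A parent with at least 80% identity over at least 50% of the length was found for 115 of the 118, and these were 96 different genes. Where the deposited symbol or description names a parent, as it does for 31, the alignment gave the same gene for all 31. The median identity was 98.0%, with a range from 86.2% to 100.0%, and 10 pseudogenes were identical to a coding transcript over their aligned length. At least 1 other annotated gene had a transcript with at least 95% identity over 80% of the length for 100 of the 118. The median number of such near-identical genes was 2, and the most was 63, for Gm7336, a copy of Gapdh. These numbers include the parent itself where it passes these limits, and other listed copies. How the authors' counting treated reads that match several places is not given in the sources used here. The counts of these 100 pseudogenes are uncertain in that respect, and whether the other 18 share reads with their parents was not examined.

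The copies of 3 parents are shown as examples. Each stretch aligned without gaps and was picked to hold the most differences summed over the copies. It is therefore not typical of their whole length. The sequences are stretches of GENCODE M21 (GRCm38) reference sequence, not of the cell line's own DNA, each read 5′ to 3′ along the parent's coding sequence, with capitals where a copy differs from its parent. Rps28 and Rps2 encode ribosomal proteins, and their copies are shown because those of Rps28 all fell and those of Rps2 moved in opposite directions. For Rps28, which encodes a protein of the small subunit, bases 123 to 202 of the coding sequence are shown, beside Gm10443 at chr6:86334153-86334232 (plus strand), Gm10263 at chr13:73317976-73318055 (plus strand) and Gm13192 at chr2:4959551-4959630 (minus strand).
Rps28: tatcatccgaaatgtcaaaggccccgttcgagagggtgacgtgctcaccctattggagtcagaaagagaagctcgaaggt
Gm10443: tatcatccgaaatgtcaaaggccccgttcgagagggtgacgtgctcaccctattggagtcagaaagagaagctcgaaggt
Gm10263: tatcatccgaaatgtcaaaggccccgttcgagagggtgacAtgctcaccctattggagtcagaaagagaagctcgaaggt
Gm13192: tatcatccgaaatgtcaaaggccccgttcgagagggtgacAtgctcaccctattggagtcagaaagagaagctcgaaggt
Gm10443 matched the 210 bases of the Rps28 coding sequence in full. Gm10263 and Gm13192 each differed from it at 1 base, over 210 and 208 aligned bases, and the stretch shown is identical in these 2 copies.

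For Rps2, another protein of the small subunit, bases 181 to 300 are shown beside Gm11249 at chr4:67931037-67931156 (plus strand), Gm5786 at chr12:59081199-59081318 (plus strand) and Rps2-ps6 at chr14:76237270-76237389 (minus strand).
Rps2: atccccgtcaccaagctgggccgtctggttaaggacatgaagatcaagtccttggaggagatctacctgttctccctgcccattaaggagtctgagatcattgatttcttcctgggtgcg
Gm11249: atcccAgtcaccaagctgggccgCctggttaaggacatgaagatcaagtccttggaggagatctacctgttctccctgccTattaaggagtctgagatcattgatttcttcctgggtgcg
Gm5786: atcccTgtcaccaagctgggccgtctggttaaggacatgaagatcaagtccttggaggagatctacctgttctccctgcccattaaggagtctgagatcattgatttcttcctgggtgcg
Rps2-ps6: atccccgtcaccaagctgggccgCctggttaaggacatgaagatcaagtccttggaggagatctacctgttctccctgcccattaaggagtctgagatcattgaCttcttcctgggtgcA
Over the aligned part of the 882 coding bases, Gm11249 carried 12 substitutions, Gm5786 carried 10 and Rps2-ps6 carried 7. Gaps took a further 25 bases in Gm11249 and 24 in Rps2-ps6 and none in Gm5786, and identity over the aligned transcripts was 98.9% for Gm5786, 96.5% for Rps2-ps6 and 95.7% for Gm11249.

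Odc1 encodes ornithine decarboxylase, which makes putrescine in polyamine synthesis, and its copies are shown because it is the only parent that is itself in the MGH-CP1 table. Bases 877 to 996 of its coding sequence are shown beside Gm7993 at chr5:95975117-95975236 (plus strand) and Gm17709 at chr8:121973115-121973234 (minus strand).
Odc1: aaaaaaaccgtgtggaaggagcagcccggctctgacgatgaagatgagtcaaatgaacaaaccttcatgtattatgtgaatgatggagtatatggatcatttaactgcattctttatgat
Gm7993: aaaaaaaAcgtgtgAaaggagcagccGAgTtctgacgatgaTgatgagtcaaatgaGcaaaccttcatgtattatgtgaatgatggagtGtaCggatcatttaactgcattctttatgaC
Gm17709: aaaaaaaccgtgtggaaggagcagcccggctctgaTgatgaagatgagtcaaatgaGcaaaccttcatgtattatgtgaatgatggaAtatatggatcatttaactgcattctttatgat
Gm7993 differed from Odc1 at 10 of these 120 bases and Gm17709 at 3. Of the 1386 coding bases, 1366 aligned in Gm7993, with 31 substitutions, and 1096 in Gm17709, with 19. Gaps took 35 bases in Gm7993 and 290 in Gm17709.

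The authors' deposited table lists 44 pseudogenes as higher and 74 as lower with MGH-CP1. The 44 are 37.3% of the pseudogenes, whereas 57.3% of all 471 listed genes, 64.0% of the 353 listed genes that are not pseudogenes and 48.3% of the 211 protein-coding genes are listed as higher. The normalised counts of the groups, which are the authors' counts divided by a size factor per library, did not overlap for 116 of the 118, and for 97.7% of all listed genes. The exceptions, named after their values were seen, were Spcs2-ps and Gm8325. Enough counts for the edgeR quasi-likelihood test were present for 99 pseudogenes, of which 37 were called higher and 62 lower at an adjusted p below 0.05. Of all 355 genes tested in the table, 100.0% were called, 49.3% higher and 50.7% lower, which follows from how the table was made. The median log2 change was -1.22 over the 99 pseudogenes and -1.01 over all 355. Because the authors listed no gene with a change between -1 and 1, these and all later medians of log2 change mainly show which direction holds more genes. They do not give a typical change. The other 19 pseudogenes did not pass the filter on low counts and are given by their values. Without that filter all 118 were called by the same test, in the direction listed.

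Although more pseudogenes fell than rose, their summed level was higher with MGH-CP1. The 118 together took 0.0573%, 0.0523% and 0.0507% of the total counts in the vehicle libraries and 0.0824%, 0.0893% and 0.0812% in the MGH-CP1 libraries. Every MGH-CP1 library lay above every vehicle library. Members were also ranked by normalised counts over all 6 libraries, a ranking that favours members high with MGH-CP1. The 5 highest held 31.0% to 34.3% of the pseudogene counts in vehicle and 56.5% to 58.0% with MGH-CP1. Without these 5, the summed normalised counts were 10869, 10117 and 9294 in vehicle and 10102, 10849 and 9605 with MGH-CP1, and the groups overlapped. Ranked on the vehicle libraries alone, 3 of the 5 with the most counts were listed as higher and 2, Gm7367 and Gm3756, as lower. A difference in a bulk library cannot tell fewer cells carrying a transcript from less of it per cell.

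The libraries held 31852117 to 40020833 counts in vehicle and 19934012 to 24310817 with MGH-CP1. Ribosomal RNA, from the listed gene CT010467.1, made up 0.125%, 0.0554% and 0.0402% of the counts in vehicle and 0.614%, 0.803% and 0.342% with MGH-CP1, and the mitochondrial mt-Rnr1 made up 0.00767% to 0.00934% and 0.0146% to 0.0277%. These shares moved with the groups in the same direction as the pseudogene sum, and their part in the pseudogene values was not tested. Of 9 endothelial markers, 2 were in a table, with vehicle FPKM (fragments per unit of gene length and of library depth) of 90.3 ± 2.90 for Kdr and 0.149 ± 0.0200 for Vwf (SD, n = 3), and the other markers were not analysed here. Of 5 macrophage markers, Cd68 and Lyz2 were listed, at a vehicle FPKM of 0.347 and 5.08, and none of the 5 fibroblast and mural or 4 epithelial markers was in a table.

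**Figure D1:**
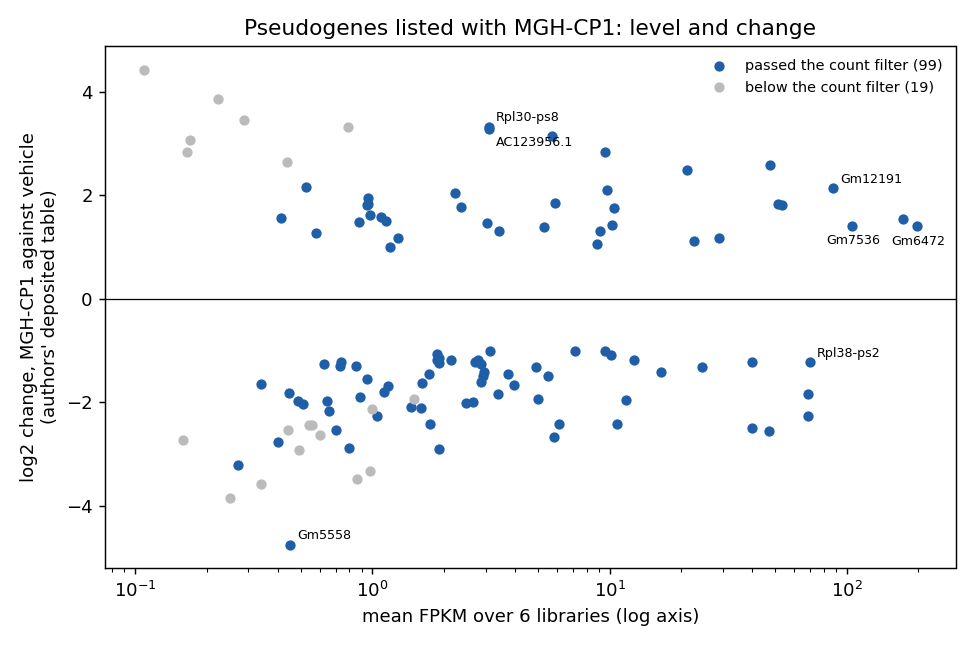
Log2 change in the authors' deposited table (vertical axis) against the mean FPKM over 6 libraries (horizontal log axis) for the 118 pseudogenes, with 99 tested members in blue and 19 below the count filter in grey. The band between -1 and 1 is empty because the table was picked for change, and Gm6472 and Gm7536, among the highest in FPKM, lie above 0.

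Copies of cytosolic ribosomal protein genes were the biggest family, with 40 of the 118. The authors' deposited table gives 18 of them as higher and 22 as lower. The proteins of the large subunit surround the site of peptide bond formation, and those of the small subunit surround the site where the messenger RNA is read. Copies of large subunit genes were listed as higher for 12 of 19, and of the 17 tested 11 rose and 6 fell, with a median log2 change of 1.55. Copies of small subunit genes were listed as higher for 6 of 21, and of the 16 tested 5 rose and 11 fell, with a median of -1.40. The difference between the subunits was not tested. Of all listed genes 57.3% are higher, and of all pseudogenes 37.3%. Both sets hold several copies of some parents.

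**Figure D2:**
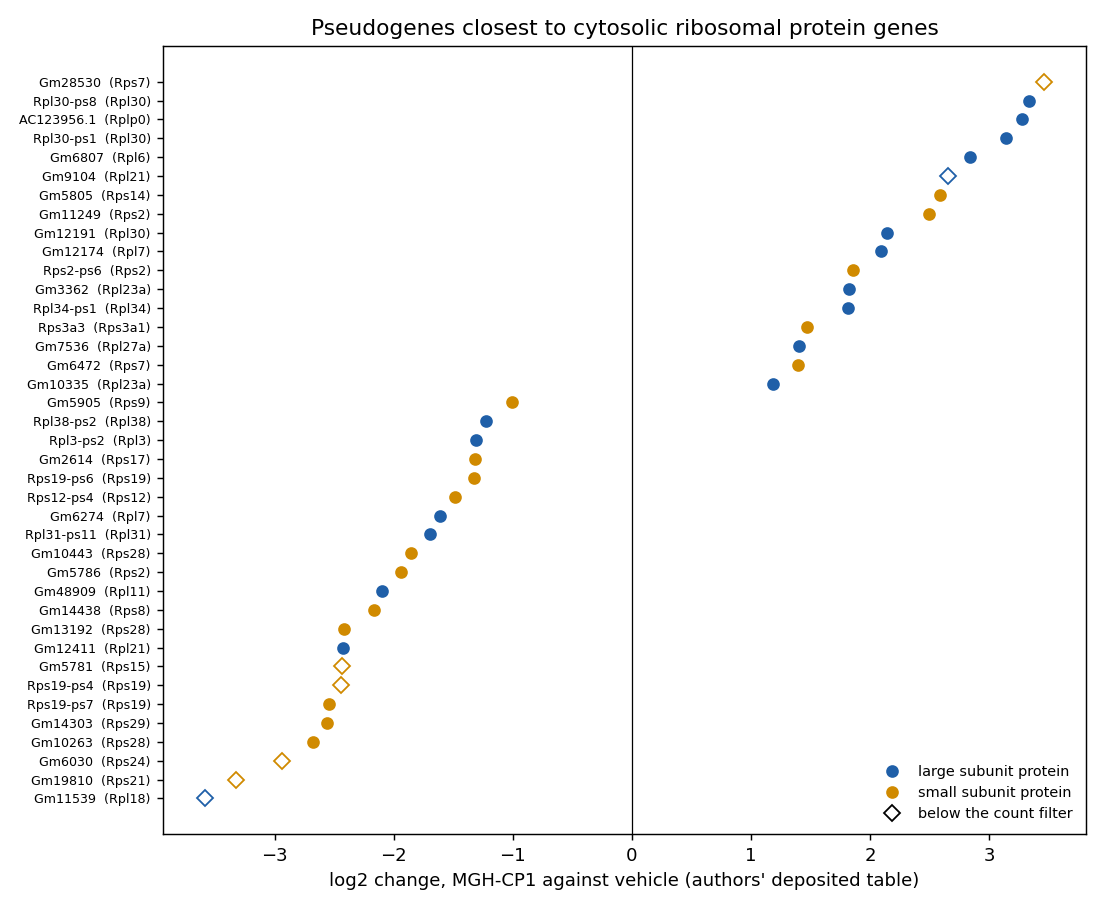
Log2 change in the authors' deposited table (horizontal axis) for 39 of the 40 pseudogenes closest to a cytosolic ribosomal protein gene (parent in brackets), with large subunit proteins in blue, small subunit proteins in ochre and members below the count filter as open diamonds. Among the large subunit copies drawn 11 of 18 lie to the right of 0, and among the small subunit copies 6 of 21.

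All 3 copies of Rpl30, which encodes a protein of the large subunit, rose. Rpl30-ps8 had normalised counts of 9.70, 4.93 and 2.09 in vehicle and 48.7, 63.6 and 51.1 with MGH-CP1. Its means of 5.57 ± 3.85 and 54.4 ± 7.99 (SD, n = 3) gave a log2 change of 3.31 (SE 0.43, edgeR adjusted p = 7.67e-05), the highest among tested pseudogenes. Without vehicle library 1, the highest of its group, the change was 3.94. Rpl30-ps1 had 17.6, 11.5 and 5.58 in vehicle and 70.7, 126 and 105 with MGH-CP1, with a log2 change of 3.13 (SE 0.38, edgeR adjusted p = 4.43e-05). Gm12191 was far more abundant, at 562, 195 and 195 in vehicle and 1215, 1764 and 1225 with MGH-CP1. Its log2 change was 2.15 (SE 0.37, edgeR adjusted p = 0.000434), and 2.84 without vehicle library 1. The vehicle library 1 value was the highest of its group for all 3 copies, and the groups did not overlap for any of them. Each has 12 near-identical genes, which include Rpl30 itself and the other listed copies.

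All 3 copies of Rps28 fell. Gm10443, identical to the coding sequence, had 759, 647 and 493 normalised counts in vehicle and 181, 188 and 158 with MGH-CP1, with a log2 change of -1.85 (SE 0.18, edgeR adjusted p = 1.43e-05). Gm10263 went from 104, 93.6 and 57.2 to 15.1, 11.3 and 13.1, a log2 change of -2.67 (SE 0.32, edgeR adjusted p = 4.43e-05). Gm13192 went from 64.4, 69.8 and 46.8 to 11.6, 14.1 and 8.32, a log2 change of -2.41 (SE 0.32, edgeR adjusted p = 8.53e-05). Vehicle library 3 was the lowest of its group for all 3 copies. The SE intervals of Gm10263 and Gm13192, which share the stretch printed above, overlapped.

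The 3 copies of Rps2 moved in opposite directions. Gm11249 rose from 123, 129 and 211 normalised counts to 811, 959 and 853, a log2 change of 2.50 (SE 0.21, edgeR adjusted p = 6.41e-06). Rps2-ps6 rose from 43.2, 43.5 and 94.9 to 202, 229 and 233, a log2 change of 1.85 (SE 0.28, edgeR adjusted p = 0.000181). Gm5786 fell from 234, 209 and 147 to 49.8, 55.1 and 48.7, a log2 change of -1.94 (SE 0.21, edgeR adjusted p = 2.87e-05). Vehicle library 3 was the highest of its group for the copies that rose and the lowest for the copy that fell. In each case it was the vehicle library nearest to the MGH-CP1 values.

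Opposite directions were also seen among copies of Rpl7 and Rpl21, proteins of the large subunit. Gm12174, a copy of Rpl7, rose from 87.3, 88.7 and 78.2 normalised counts to 368, 372 and 344, a log2 change of 2.09 (SE 0.14, edgeR adjusted p = 1.85e-06). Gm6274, closest to the same gene, fell from 127, 102 and 60.7 to 24.3, 42.4 and 28.5, a log2 change of -1.61 (SE 0.32, edgeR adjusted p = 0.000936). The identity to Rpl7 was 98.8% for the copy that rose and 95.4% for the copy that fell. Gm12411, a copy of Rpl21 with 55 near-identical genes, fell from 318, 237 and 184 to 33.6, 59.3 and 45.2. Its log2 change was -2.43 (SE 0.26, edgeR adjusted p = 2.27e-05). Gm9104, closest to Rpl21 as well, did not pass the count filter, at 3.53, 0 and 1.40 in vehicle and 8.11, 14.1 and 8.32 with MGH-CP1.

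Among the other ribosomal copies with a shared parent, both copies of Rpl23a rose and all 3 copies of Rps19 were lower. Gm3362, a copy of Rpl23a, had 256, 273 and 352 normalised counts in vehicle and 1144, 1102 and 889 with MGH-CP1, a log2 change of 1.83 (SE 0.17, edgeR adjusted p = 1.14e-05). Gm10335, which differs from Rpl23a at 1 of 468 aligned bases, had 246, 246 and 205 in vehicle and 565, 501 and 511 with MGH-CP1, a log2 change of 1.18 (SE 0.14, edgeR adjusted p = 4.43e-05). Of the Rps19 copies, Rps19-ps6 fell from 461, 456 and 369 to 182, 171 and 160.5, a log2 change of -1.32 (SE 0.15, edgeR adjusted p = 2.93e-05). Rps19-ps7 was at a much lower level, 13.2, 19.7 and 11.2 in vehicle and 2.32, 4.24 and 1.19 with MGH-CP1, a log2 change of -2.49 (SE 0.54, edgeR adjusted p = 0.00136). Rps19-ps4 did not pass the count filter, at 15.0, 14.8 and 4.89 in vehicle and 1.16, 4.24 and 1.19 with MGH-CP1.

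The parents with 2 or 3 listed copies numbered 14, with 33 copies in all. The copies of 10 parents shared a direction in the authors' deposited table. They were higher for Gapdh, Odc1, Rpl23a, Rpl30, Rps7 and Rrs1 and lower for Eef1a1, Rps19, Rps28 and Tuba1b. The copies of the other 4, Hmgb1, Rpl7, Rpl21 and Rps2, were split. With 74 of all 118 pseudogenes listed as lower, some agreement would arise without a shared parent, and its extent was not tested. Copies of a parent share sequence, and reads that match several of them may have been assigned among them, so that they are not independent measurements.

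**Figure D3:**
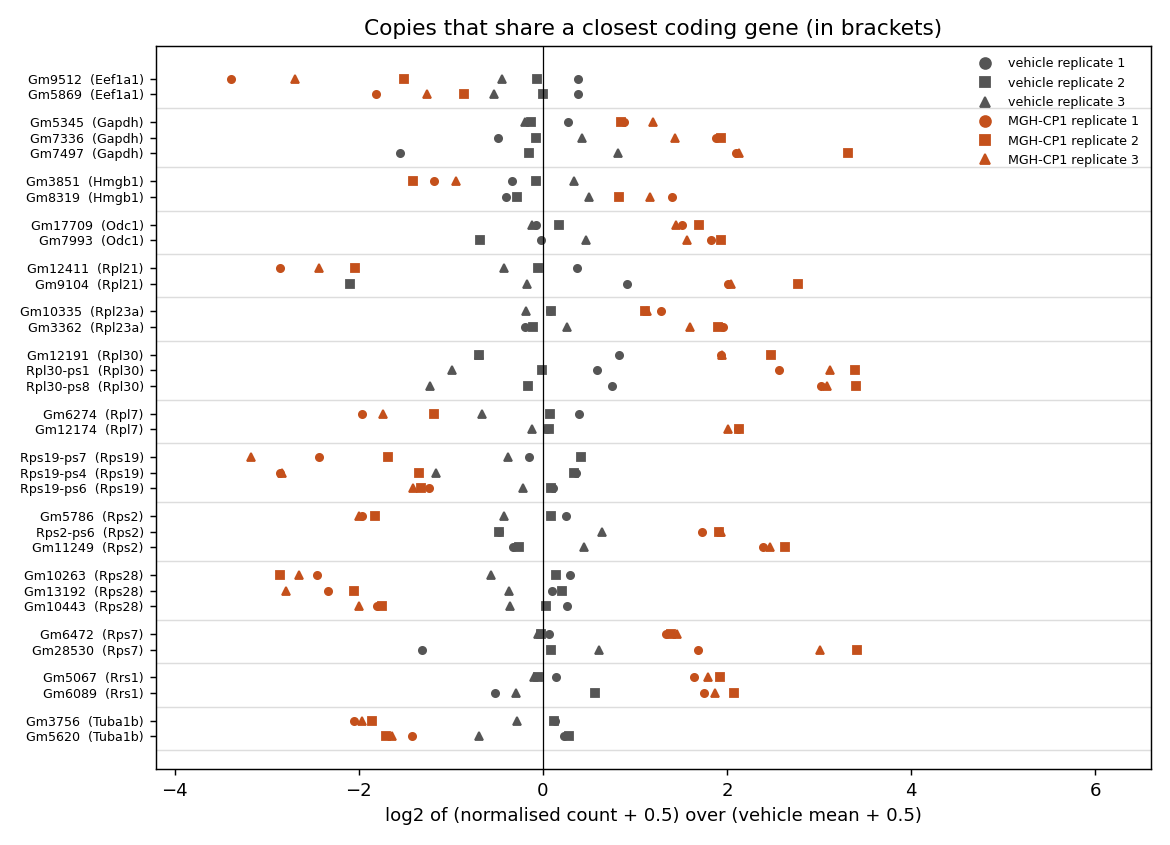
Log2 of each library's normalised count over the vehicle mean, with 0.5 added to both (horizontal axis), for the 33 pseudogenes that share their closest coding gene (in brackets) with another listed copy, with vehicle libraries in grey and MGH-CP1 libraries in orange and replicates 1, 2 and 3 as circles, squares and triangles. The copies of 10 of the 14 parents lie to the same side of 0, and those of Hmgb1, Rpl21, Rpl7 and Rps2 lie on both sides.

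The translation factors had 4 copies, 1 listed as higher and 3 as lower. Eef1a1 encodes the factor that brings aminoacyl-tRNA to the ribosome, and both of its copies fell. Gm9512 fell from 53.8, 39.4 and 30.0 normalised counts to 3.48, 14.1 and 5.94, a log2 change of -2.42 (SE 0.46, edgeR adjusted p = 0.000705), and of -3.09 without MGH-CP1 library 2. Gm5869 fell from 187, 144 and 99.1 to 40.6, 79.1 and 59.4, a log2 change of -1.27 (SE 0.29, edgeR adjusted p = 0.00183). The copy listed as higher, Gm4366, is closest to Eef1g, a subunit of the exchange factor that reloads EF-1 alpha. It rose from 542, 521 and 547 to 1052, 1188 and 1268, a log2 change of 1.12 (SE 0.14, edgeR adjusted p = 4.43e-05). Rrs1, whose protein takes part in assembling the large ribosomal subunit, had 2 copies separated by 62501 bases on chromosome 5, and both rose. Gm5067 had 13.2, 11.5 and 11.2 in vehicle and 38.2, 46.6 and 42.8 with MGH-CP1, a log2 change of 1.82 (SE 0.29). Gm6089 had 7.06, 15.6 and 8.38 in vehicle and 35.9, 45.2 and 39.2 with MGH-CP1, a log2 change of 1.94 (SE 0.35).

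Copies of glycolytic genes were split by enzyme. The 3 copies of Gapdh, glyceraldehyde-3-phosphate dehydrogenase, were all listed as higher. Gm7336 rose from 116, 156 and 219.9 normalised counts to 607, 630.0 and 443, a log2 change of 1.76 (SE 0.23, edgeR adjusted p = 7.84e-05). Gm5345, which at 90.7% identity has no near-identical transcript, rose from 27.3, 20.5 and 19.5 to 41.7, 41.0 and 52.3, a log2 change of 1.01 (SE 0.27, edgeR adjusted p = 0.00472). Gm7497 did not pass the count filter, at 0, 0.821 and 2.09 in vehicle and 5.79, 14.1 and 5.94 with MGH-CP1. The groups did not overlap for any of the 3. The other glycolytic copies fell, Gm8483 of the enolase gene Eno1, described with the largest falls, and Tpi-rs11 of the triosephosphate isomerase gene Tpi1, at a log2 change of -1.85 (SE 0.44). Without MGH-CP1 library 2 the change of Tpi-rs11 was -2.47.

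Of the 6 copies of respiratory chain and ATP synthase genes, 2 rose and 4 fell. Ndufb4c, identical over its 390 aligned bases to the complex I gene Ndufb4, rose from 8.82, 9.85 and 9.77 normalised counts to 33.6, 52.3 and 32.1, a log2 change of 2.03 (SE 0.33, edgeR adjusted p = 0.000291). Gm10222 on chromosome 1 is an unprocessed copy of the mitochondrial genome, identical over 294 bases to mt-Nd4l, another complex I gene. It had 34.4, 35.3 and 59.3 in vehicle and 136, 80.5 and 107 with MGH-CP1, a log2 change of 1.32 (SE 0.28, edgeR adjusted p = 0.00129). The share of mt-Rnr1 counts given above rose with it. The copies that fell were Gm4045, Gm6969, Gm16418 and Gm2962, with log2 changes from -2.79 to -1.02, and Gm2962 moved from -1.64 to -2.66 without MGH-CP1 library 3.

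The HMG proteins bend or loosen DNA in chromatin, and their 3 copies gave 1 rise and 2 falls. Gm8319, a copy of Hmgb1, rose from 10.6, 11.5 and 20.2 normalised counts to 38.2, 25.4 and 32.1, a log2 change of 1.16 (SE 0.35, edgeR adjusted p = 0.00787). Gm3851, closest to the same gene, fell from 27.3, 32.8 and 44.0 to 15.1, 12.7 and 17.8, a log2 change of -1.19 (SE 0.32, edgeR adjusted p = 0.00485). Gm7862, a copy of Hmgn1, fell by 2.08 on the log2 scale (SE 0.40). Both copies of histone H3.3 genes fell, Gm6421 by 1.01 (SE 0.25) and Gm6485 by 2.00 (SE 0.35).

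The 3 copies of genes for tubulin and thymosin, which build or restrain the cytoskeleton, all fell. Gm3756, closest to the alpha-tubulin gene Tuba1b, fell from 776, 767 and 580.0 normalised counts to 170.3, 195 and 181, a log2 change of -1.96 (SE 0.16, edgeR adjusted p = 5.66e-06). Gm5620, the other Tuba1b copy, fell from 22.9, 23.8 and 11.9 to 6.95, 5.65 and 5.94, a log2 change of -1.62 (SE 0.43, edgeR adjusted p = 0.00425). Gm3788 lies in an intron of Lrba and differs at 1 of 136 bases from Tmsb10, whose product binds actin monomers. It fell from 429.6, 446 and 419 to 103, 81.9 and 84.4, a log2 change of -2.26 (SE 0.15, edgeR adjusted p = 1.85e-06). Of the remaining small families, the copies of the RNA-binding protein genes Hnrnpk (Gm4130) and Srsf3 (Gm9761), of the proteasome gene Psmc1 (Gm9575) and of the cyclophilin gene Ppia (Gm5558) fell. The copy of the chaperonin gene Hspd1 (Hspd1-ps3) rose by 1.31 (SE 0.27), and the copy of Sumo2 (Smt3h2-ps4), listed as lower, did not pass the count filter. A further 46 pseudogenes had parents outside these families, 16 listed as higher and 30 as lower.

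The 8 largest rises among tested pseudogenes included 7 copies of ribosomal protein genes. Beside the Rpl30 and Rps2 copies described above, AC123956.1 (chr16:85644252-85645023, plus strand) is closest to Rplp0, which encodes a protein of the large subunit stalk, at 92.8% identity and with no near-identical transcript. It had 8.82, 13.1 and 15.4 normalised counts in vehicle and 123, 143 and 101 with MGH-CP1, means of 12.4 ± 3.32 and 122 ± 20.8 (SD, n = 3) and a log2 change of 3.26 (SE 0.27, edgeR adjusted p = 5.66e-06). Gm6807, closest to Rpl6, rose from 47.6, 53.4 and 74.0 to 419, 405 and 439, a log2 change of 2.84 (SE 0.18, edgeR adjusted p = 1.85e-06). It overlaps an exon of Btrc on the other strand, and the libraries carry no strand mark, so reads of Btrc and of Gm6807 there cannot be told apart. Gm5805, closest to Rps14, rose from 131, 154 and 235 to 1059, 1102 and 960.4, a log2 change of 2.58 (SE 0.21, edgeR adjusted p = 5.66e-06). The other of the 8 was Gm6123, a copy of the pyruvate dehydrogenase gene Pdhb. It rose from 6.17, 4.11 and 6.98 to 27.8, 38.1 and 11.9, a log2 change of 2.12 (SE 0.48, edgeR adjusted p = 0.00173), and MGH-CP1 library 3 lay far below the other 2.

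The 8 largest falls came from 8 different parents, and 5 of these are outside the ribosomal proteins. Gm5558, a copy of Ppia, had 10.6, 12.3 and 13.3 normalised counts in vehicle and 0, 1.41 and 0 with MGH-CP1. This rests on 46 raw counts in vehicle and 1 with MGH-CP1, a ratio of 29.3 with an exact 95% counting interval of 5.01 to 1183 that covers counting error only. The fitted log2 change was -4.51 (SE 0.76, edgeR adjusted p = 0.000336) and -6.75 without MGH-CP1 library 2, the library with the single count. Gm7517, closest at 90.6% to Ewsr1, an RNA-binding protein gene, went from 25.6, 24.6 and 18.8 to 4.63, 1.41 and 1.19, a log2 change of -3.15 (SE 0.50, edgeR adjusted p = 0.000235), and of -4.03 without MGH-CP1 library 1. Gm6091, which covers 165 bases of the thymidine kinase gene Tk1 with 1 difference, went from 18.5, 17.2 and 11.2 to 2.32, 2.83 and 1.19, a log2 change of -2.83 (SE 0.52, edgeR adjusted p = 0.000547). Gm4045, a copy of the ATP synthase gene Atp5l, went from 11.5, 14.0 and 11.2 to 1.16, 1.41 and 2.38, a log2 change of -2.79 (SE 0.52, edgeR adjusted p = 0.000582). Gm8483, the Eno1 copy, went from 21.2, 32.0 and 22.3 to 2.32, 1.41 and 7.13, a log2 change of -2.72 (SE 0.50, edgeR adjusted p = 0.000568), and of -3.64 without MGH-CP1 library 3. Each of these 5 had fewer than 50 normalised counts in every library.

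The remaining large falls were the Rps28 copy Gm10263, the Rps19 copy Rps19-ps7 and Gm14303. Gm14303 (chr2:172509521-172509691, minus strand) is identical over 171 bases to Rps29, a small subunit gene, and has 6 near-identical genes. It was the most abundant of the 8, at 405, 331 and 420.2 normalised counts in vehicle and 55.6, 66.4 and 74.9 with MGH-CP1, a log2 change of -2.55 (SE 0.18, edgeR adjusted p = 1.85e-06). The groups did not overlap for any of the 16 largest rises and falls, which the rule for naming them required.

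**Figure D4:**
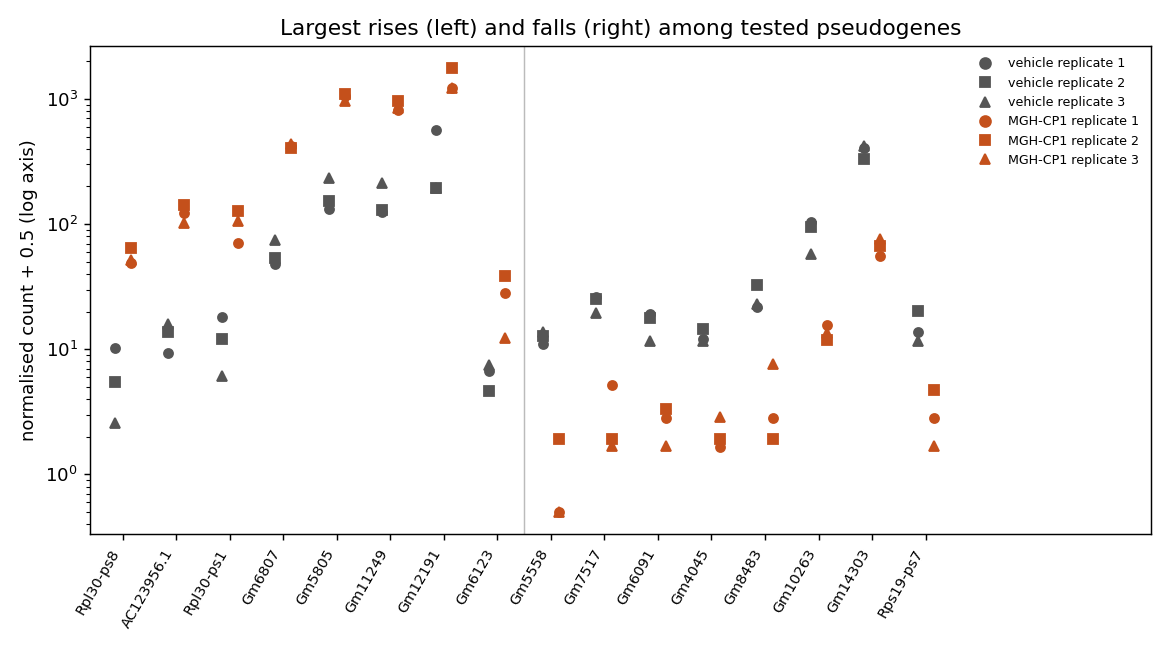
Normalised count plus 0.5 in each library (vertical log axis) for the 8 largest rises (left) and 8 largest falls (right) among tested pseudogenes, with vehicle libraries in grey, MGH-CP1 libraries in orange and replicates 1, 2 and 3 as circles, squares and triangles. Gm5558 is at 0 in 2 MGH-CP1 libraries, and vehicle library 1 stands above the other vehicle libraries for Gm12191.

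Levels of different pseudogenes were compared per length, as FPKM. By the mean over all 6 libraries, a ranking that favours members that rose, the 5 highest were all copies of ribosomal protein genes, and 4 of them rose. In the vehicle libraries alone, 4 of the 5 highest were ribosomal, 2 rose and 3 fell, the last being Gm3788, Gm10443 and Rpl38-ps2. Of the first 5, 4 are described here. Gm6472, a transcribed processed pseudogene on chromosome X (chrX:152909505-152910155, minus strand) closest to Rps7, had an FPKM of 114, 108 and 106 in vehicle and 274, 285 and 297 with MGH-CP1. Its normalised counts gave a log2 change of 1.40 (SE 0.16, edgeR adjusted p = 2.93e-05). Gm28530, the other copy of Rps7, lay at the other end of the scale, with an FPKM of 0, 0.0507 and 0.0866 in vehicle and 0.214, 0.782 and 0.586 with MGH-CP1, below the count filter. Its 3 vehicle and 20 MGH-CP1 counts gave a ratio of 10.5, with an exact 95% counting interval of 3.10 to 55.0 that again covers counting error only.

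Gm7536, identical to its parent Rpl27a over 444 bases, had an FPKM of 55.8, 52.0 and 65.4 in vehicle and 176, 166 and 115 with MGH-CP1, a log2 change of 1.40 (SE 0.19, edgeR adjusted p = 9.04e-05). Gm12191, the Rpl30 copy, came next by the mean over the 6 libraries, at an FPKM of 57.5, 20.0 and 20.1 in vehicle and 124, 180.0 and 125 with MGH-CP1. Rpl38-ps2, identical over 213 bases to Rpl38, fell, from an FPKM of 115, 96.5 and 81.4 to 46.3, 48.5 and 29.9, a log2 change of -1.22 (SE 0.20, edgeR adjusted p = 0.000317). With MGH-CP1 the mean of Gm6472 (285 ± 11.5) lay above those of Gm7536 and Gm12191 by more than their SD, and the means of Gm7536 (152 ± 32.9) and Gm12191 (143 ± 32.0; SD, n = 3) were not.

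Of the transcribed pseudogenes, 3 were named by the rule. Besides Gm6472, these were Gm6485, closest at 92.3% to the histone gene H3f3b, and Scp2-ps2, closest to the sterol carrier gene Scp2. Gm6485 fell from 55.6, 57.5 and 34.2 normalised counts to 10.4, 17 and 9.51, a log2 change of -2.00 (SE 0.35, edgeR adjusted p = 0.000468). Scp2-ps2 fell from 97.9, 97.7 and 108 to 51.0, 50.9 and 42.8, a log2 change of -1.07 (SE 0.20, edgeR adjusted p = 0.000547). Both overlap an exon of another gene without a coding product, Gm43584 and Gm47162.

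Odc1 and both of its copies rose. The gene itself had 9762, 9088 and 10362 normalised counts in vehicle and 21932, 20525 and 20639 with MGH-CP1, a log2 change of 1.11 (SE 0.19, edgeR adjusted p = 0.000414). Gm7993 had 40.6, 25.5 and 57.2 in vehicle and 147, 158 and 122 with MGH-CP1, a log2 change of 1.78 (SE 0.27, edgeR adjusted p = 0.000188). Gm17709 had 15.9, 18.9 and 15.4 in vehicle and 48.7, 55.1 and 46.4 with MGH-CP1, a log2 change of 1.58 (SE 0.27, edgeR adjusted p = 0.000335). The vehicle FPKM was 102 ± 6.88 for Odc1, 1.06 ± 0.413 for Gm7993 and 0.544 ± 0.0615 for Gm17709 (SD, n = 3). Whether reads of Odc1 are among the counts of its copies was not tested. The parents of all other pseudogenes are not in the MGH-CP1 table, and their own counts were not analysed here.

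**Figure D5:**
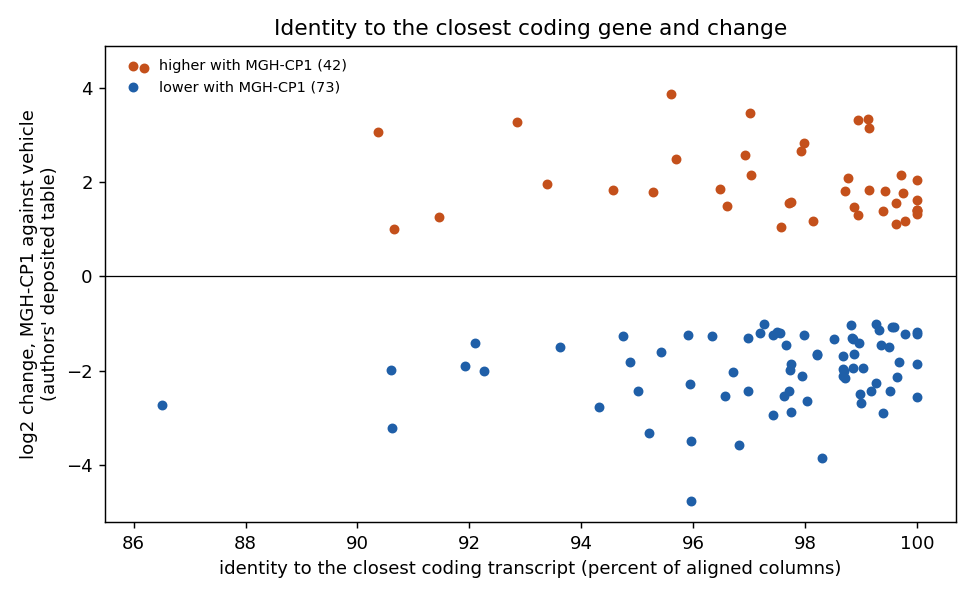
Log2 change in the authors' deposited table (vertical axis) against identity to the closest coding transcript (horizontal axis, percent of aligned columns) for the 115 pseudogenes with a parent, 42 higher in orange and 73 lower in blue. Identity runs from 86.2 to 100.0 percent among those higher and from 86.5 to 100.0 percent among those lower.

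Likeness to other transcripts was found on both sides. Of the 18 pseudogenes with no near-identical gene, 8 are listed as higher and 10 as lower. Of the 64 with 1 to 5, 22 are higher and 42 lower, and of the 36 with over 5, 14 are higher and 22 lower. By identity to the parent, 7 of 17 below 95%, 19 of 63 from 95% to below 99% and 16 of 35 at 99% or more are higher. Among these 35 are the 10 identical copies, of which 6 are higher, with a median log2 change of 1.35. The median identity was 98.4% for those listed as higher and 98.0% for those listed as lower. The median length was 706.5 bases for those listed as higher and 487.5 for those listed as lower. The median of the mean FPKM over all 6 libraries, a measure that favours members that rose, was 3.07 and 1.81. In the vehicle libraries alone the median normalised count, not scaled by length, was 21.8 for those listed as higher and 42.8 for those listed as lower. These are counts of genes picked for change, and no difference between the classes was tested.

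On the GRCm38 annotation 71 pseudogenes lie between genes, 38 within an intron of another gene and 9 on an exon of another gene. Listed as higher by the authors' deposited table are 22 of the 71, 18 of the 38 and 4 of the 9. Of all pseudogenes 37.3% are listed as higher, and of all listed genes 57.3%. No difference between the position classes was tested. None of the genes that hold a pseudogene in an intron or on an exon is itself in the MGH-CP1 table. With no strand mark, unspliced or overlapping RNA of such a gene cannot be told apart from the pseudogene.

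The spread among vehicle libraries differed between pseudogenes. Among the 102 with a vehicle mean of at least 10 normalised counts, each vehicle library stood at least 1.5 times above both others for 5. The 5 for vehicle library 3, Gm11249, Gm5805, Rps2-ps6, Gm10222 and Gm8319, all rose with MGH-CP1, as did Rpl30-ps1 and Gm12191 of the 5 for vehicle library 1. Vehicle library 3 was the highest of its group for 23 of the 44 pseudogenes listed as higher and the lowest for 43 of the 74 listed as lower, so that it often lay nearest to the MGH-CP1 libraries. Such counts were not made for the listed genes that are not pseudogenes. Whether the pattern is particular to pseudogenes was therefore not examined. Vehicle library 3 also had the most counts of the 6 libraries. Leaving it out gave 37 rises and 67 falls among 104 tested pseudogenes.

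Gm8325, a copy of the ubiquitin-conjugating enzyme gene Ube2v1, rested on part of its group. It had 77.6, 75.5 and 71.9 normalised counts in vehicle and 69.5, 243 and 157 with MGH-CP1, so that MGH-CP1 library 1 lay below every vehicle library. Its log2 change of 1.05 (SE 0.35, edgeR adjusted p = 0.013) became 0.59 with an edgeR adjusted p of 0.0829 without MGH-CP1 library 2. Gm18030, for which no parent was found, had a log2 change of 1.5 (SE 0.45, edgeR adjusted p = 0.00770) that became 0.97 with an edgeR adjusted p of 0.0556 without MGH-CP1 library 3. Spcs2-ps, with 1.76, 0 and 0 in vehicle and 2.32, 1.41 and 20.2 with MGH-CP1, had nearly all of its counts in 1 library.

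The dinaciclib table, which lists 251 genes, holds 1 pseudogene, Gm6768 (chr12:119260978-119262855, plus strand), and none of the 118. Its raw counts were 281, 303 and 320 in vehicle and 51, 60 and 98 with dinaciclib, from libraries of 2541162 to 3316779 total counts in the dinaciclib group. Scaled by the authors' size factors of that table, these became 91.3, 91.5 and 82.5 in vehicle and 189, 171 and 321 with dinaciclib, and the deposited table lists it as higher at a log2 change of 1.36. The parents of 2 of the 118 are listed there. Srsf3, a splicing factor gene and parent of Gm9761, had an FPKM of 25.6 ± 1.31 in vehicle and 1.98 ± 0.378 with dinaciclib, while Gm9761 fell with MGH-CP1 from 183, 177 and 211 normalised counts to 71.8, 102 and 97.5. Ewsr1, the parent of Gm7517, had 27.9 ± 1.27 in vehicle and 130.3 ± 14.4 with dinaciclib (SD, n = 3). Both tables use the same vehicle libraries, and neither gives the parents' counts with MGH-CP1.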

How the data were processed

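RNA sequencing libraries of EHE17 cells, 3 per group, were made from poly(A) RNA with random primers and no strand mark, per the labels' protocols. Reads were trimmed, aligned, counted and compared by the authors using DESeq2 1.20.0, featureCounts 1.5.0-p3, HISAT2 2.0.5 and fastp, per the submitters' processing notes. Their build is not given in the sources used here. All 118 pseudogene identifiers are in GENCODE M21 and 116 (98.3%) have the same start and end there, so its GRCm38 coordinates were used. The authors deposited whole read counts per gene, the same counts divided by a size factor per library (a normalised signal), FPKM, and log2 fold changes with p-values and adjusted p-values of their own, per the file headers. The 2 tables were normalised separately and were not tested against each other.

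Changes were fitted on the deposited counts with edgeR 4.0.16 (quasi-likelihood, two-sided) in R 4.3.3, with the authors' size factors, filterByExpr at a minimum count of 10 and Benjamini-Hochberg adjustment over the 355 genes kept. The test was tried on simulated counts of 355 genes. It called 0% of 155 unchanged genes, 76% of 100 with a log2 change of 1 in size and 100% of 100 with 2. Because the table was picked on these libraries, adjusted p-values are no independent evidence. They weigh a difference against the spread among these samples only. Each SE is the size of the log2 change divided by the square root of the F statistic of the test. Parents were found with BLAST 2.17.0 (e-value 1e-10). Named were the 8 largest rises and falls with separate ranges, the 5 highest FPKM, copies whose parent is listed, up to 3 copies of each parent with at least 2, and 3 transcribed pseudogenes by p. Others were named as members of small families, or after their values were seen. The members and lists were chosen with earlier results of these data known. Alternatives were TMM, total counts, DESeq2 1.42.0, limma 3.58.1 on log2(FPKM + 0.1) or log2(FPKM + 1), other filters and thresholds, a block, and leaving out each library. Values of some listed pseudogenes are not reported here.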

Additional observations from a re-analysis of the deposited data

How the results depend on the processing

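Of the named pseudogenes 44 passed the count filter, and all 680 values recomputed for them under 16 alternatives kept their direction and their side of the threshold, though not their size. Over all 99 tested pseudogenes no sign turned, and 2, Gm8325 and Gm18030, lost their call at the 0.05 threshold in some alternative fit. The stricter threshold of 0.01 is not part of that count. Besides the values given above, the adjusted p of Gm8325 was 0.0643 with limma on log2(FPKM + 0.1) and 0.0611 on log2(FPKM + 1). Without 1 library, 9 pseudogenes moved by over 1.5 times; Rps12-ps4, which went from -1.48 to -2.12 without MGH-CP1 library 1, is the only one of them not given above. TMM factors moved the log2 changes of the 355 genes by a median of 0.12 and gave the pseudogenes a median of -1.09, with 37 higher and 62 lower as in the reported fit. The median was -0.72 with limma on log2(FPKM + 1), whose pseudocount shrinks low genes. On that scale 17 named changes moved by over 1.5 times, and on log2(FPKM + 0.1) 3 did. Gm5558 went from -4.51 to -2.93 with 0.1 added and -0.85 with 1 added, Gm7517 from -3.15 to -1.99 and -0.50, and Gm8483 from -2.72 to -2.06 and -0.63. Testing only genes at or above the table's median level left 69 pseudogenes, 29 called higher and 40 lower. Without a count filter, and with DESeq2, all 118 were tested, 44 called higher and 74 lower. Leaving out each library in turn gave 36 to 38 higher, 57 to 74 lower and a median from -1.36 to -1.15, over 94 to 112 tested pseudogenes.

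Deviations of libraries with the same replicate number correlated at 0.039, -0.092 and 0.015, so that the numbers were not taken to pair them. With the replicate number as a replicate block, 37 pseudogenes were called higher and 62 lower, with a median of -1.24. The count filter of the reported fit left 19 pseudogenes without a test, and for 10 pseudogenes a group holds 3 counts or fewer in all.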
